A study of Mus musculus with 48 samples.

Results

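The genes described here make cholesterol and fatty acids or control that synthesis. There are 28 of them, taken by symbol from the raw count table of 36935 genes and chosen for their function. Of the 28, 17 are enzymes of the cholesterol pathway, 5 control sterol synthesis or carry sterols, and 6 make or modify fatty acids. They were followed in mouse E14 embryonic stem cells, an established cell line, and in 3 E14 lines carrying knockouts that the labels write as KAT6A-/- KO, KAT6B-/- KO and a double KAT6A/B KO. KAT6A and KAT6B are related acetyltransferases that modify histone H3. Whether each knockout line is a single clone, and how its alleles were made, is not given in the sources used here. Each of the 4 genotypes was sampled at days 0, 2, 6 and 15 of differentiation in 3 replicates, which makes 48 libraries of ribosomal RNA-depleted total RNA in 16 groups. The replicates were independent differentiation experiments, per the design text.

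All 4 lines went through the same culture steps. Day 0 cells were stem cells grown on gelatin in medium with 15% fetal bovine serum and LIF, the cytokine that keeps them undifferentiated. For day 2 and later, LIF was withdrawn and the cells formed embryoid bodies, floating aggregates, in 10% serum. All-trans retinoic acid at 10 µM was added on days 4 and 6. From day 8 the dissociated cells grew on poly-D-lysine and laminin in serum-free medium with N2, then from day 9 in Neurobasal with B27. Time, serum, medium and attachment therefore change together, and their contributions to any difference between days cannot be told apart.

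Cells make cholesterol from acetyl-CoA. The mevalonate enzymes build isoprenoid units, squalene is made and closed into lanosterol, and a last set of enzymes converts lanosterol to cholesterol. The transcription factor SREBP2, encoded by Srebf2, is the main activator of these genes, and SREBP1, encoded by Srebf1, that of fatty acid synthesis. Both are held in the endoplasmic reticulum while sterols are plentiful: SCAP escorts them out when sterols fall, and INSIG1 keeps them in. Insig1 is itself a target of the SREBPs. Neurons and glia depend on local synthesis, because lipoprotein cholesterol crosses the blood-brain barrier poorly.

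Total counts per library ran from 22.5 M to 72.2 M. All values below are CPM, the gene's counts relative to its library's total with totals scaled by the TMM method over the 48 libraries, and all 28 genes passed the filter on low counts in every test. A call is an adjusted p under 0.05 in edgeR's quasi-likelihood test with Benjamini-Hochberg adjustment over all genes tested. Kat6a stood at 50% to 75.6% of the E14 mean of the same day in the lines lacking it, below every E14 library in 24 of 24 libraries. Kat6b stood at 59.9% to 96.5%, below every E14 library in 16 of 24. The library labelled KAT6B knockout, day 15, replicate 1 held 126 CPM of Kat6b against 90.3 to 105 CPM in E14, which raises a doubt about its label. In the double knockout, replicate 3 of day 15 held 107 CPM, just above those E14 libraries, against 85.3 and 80.6 CPM in the other two. Kat6a lay below every E14 library in all 3 double knockout libraries of that day. How the alleles were made is not given, so a Kat6b message level alone cannot decide whether a label is right. For genes whose day 15 results turn on KAT6B knockout replicate 1 or double knockout replicate 3, values without them are given beside the results. Markers of other cell types moved over the same days. In E14, 6 stem cell markers summed to 2450 to 2830 CPM at day 0, 1120 to 1520 at day 2 and 200 to 331 at day 15. The 6 neuron markers summed to 125 to 163 CPM at day 0 and 1150 to 2070 at day 15, and 6 cell cycle markers lay at 2530 to 3230, 3090 to 3450, 2180 to 2340 and 714 to 893 CPM at the 4 days. Their part in the results below was not tested.

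In E14 cells 13 of the 17 cholesterol enzymes rose from day 0 to day 2 and 0 fell. From day 2 to day 6, 13 of the 17 fell and 0 rose, and from day 6 to day 15, 6 rose and 3 fell. At day 2 against day 0, 17 of the 28 genes rose and 1 fell. Among all genes tested, 21.6% were called in that step and 9.5% were called higher. The median log2 fold change was 0.66 over the 28 genes and -0.02 over all genes. At day 6 against day 2, 19 fell and 1 rose, where 41.7% of all genes were called and 19.6% were called lower, with medians of -0.77 and 0.04. Between day 6 and day 15, 9 rose and 6 fell, where 54.6% of all genes were called. Because these are bulk libraries, fewer cells of a type and less RNA per cell cannot be told apart.

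**Figure D1:**
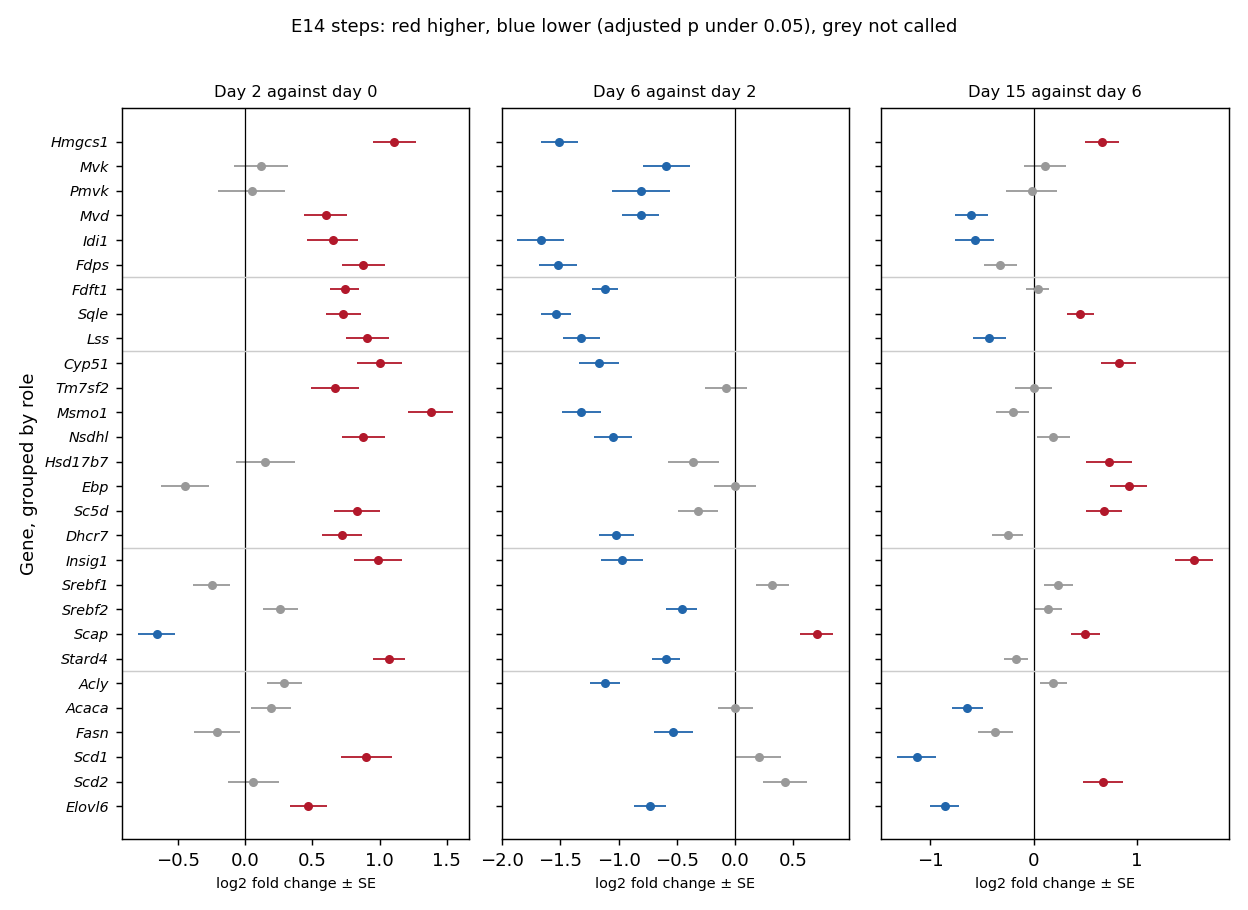
Log2 fold change with its SE for each of the 28 genes in E14 cells at 3 steps, with genes grouped by role from mevalonate synthesis at the top to fatty acid synthesis at the bottom. Most cholesterol enzymes lie right of 0 at day 2 against day 0 and left of 0 at day 6 against day 2, from 1.38 for Msmo1 down to -1.67 for Idi1.

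The same course is seen in the levels themselves. The 17 cholesterol enzymes summed to 1311, 1298 and 1149 CPM in the 3 E14 libraries of day 0. They summed to 2254, 2361 and 2297 CPM at day 2, then to 1009, 843.3 and 995 CPM at day 6 and 1358, 941.1 and 1066 CPM at day 15. The day 2 sums lay above all others, and those of days 0, 6 and 15 overlapped in part. In E14, 14 of the 28 genes had all 3 day 2 libraries above the 9 libraries of the other days, against 5.38% of all genes. Between days 0 and 2 of E14, the libraries of 40.9% of all genes did not overlap. The shares were 56.7% for days 2 and 6, 63.8% for days 6 and 15, and 72.4% for days 0 and 15. Across the 4 lines together, 7 genes (Hmgcs1, Fdps, Fdft1, Sqle, Lss, Msmo1 and Nsdhl) had all 12 day 2 libraries above all 36 others, against 0.411% of all genes.

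**Figure D2:**
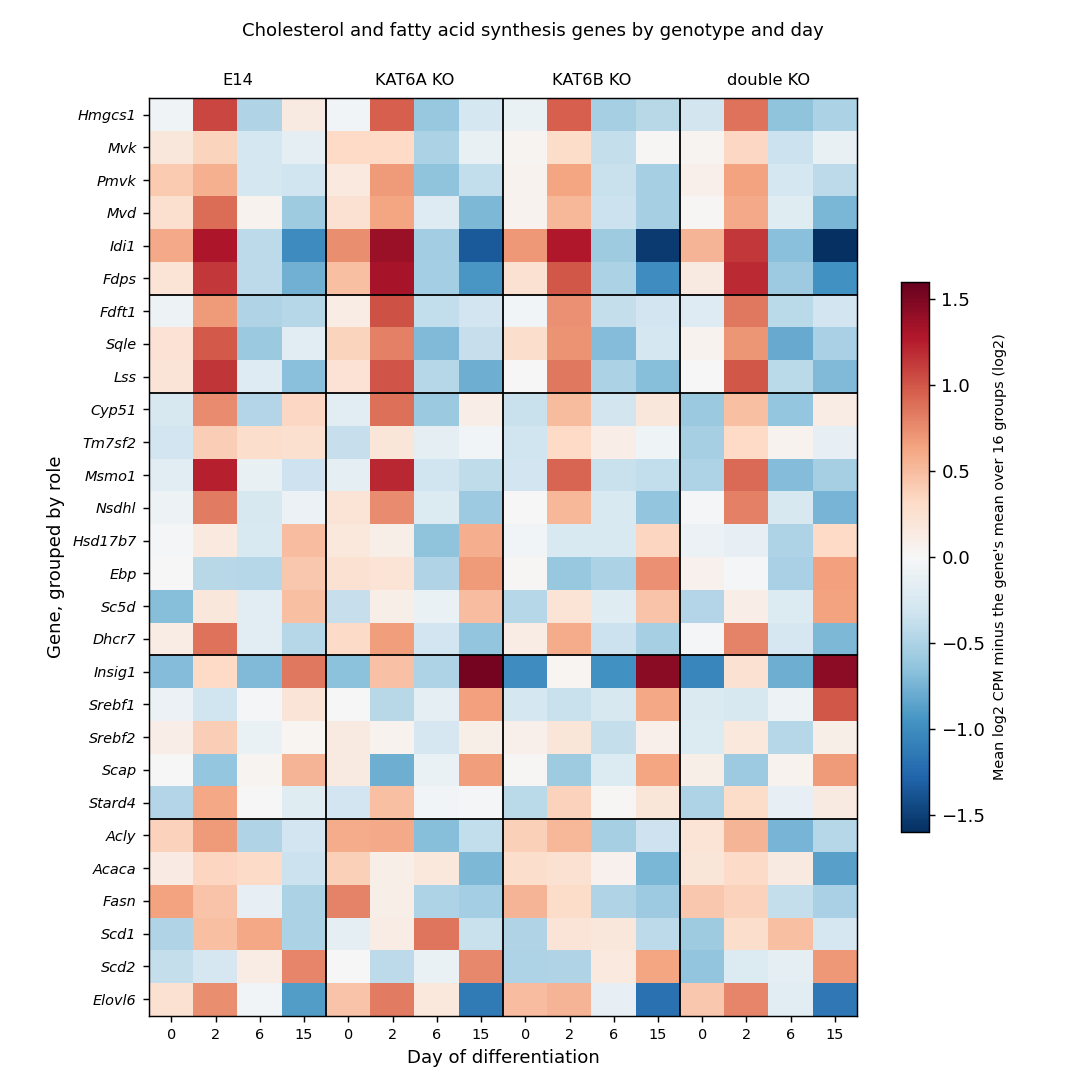
Mean log2 CPM of each gene in each of the 16 groups, minus the gene's mean over the groups, with the days of each line side by side and lines across the panel separating the roles. Day 2 is the warmest column for 14 of the 17 cholesterol enzymes in every line, and 7 genes, Insig1, Srebf1, Scap, Scd2, Hsd17b7, Ebp and Sc5d, are highest at day 15 in every line.

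Promoter sequences were available for 22 of the 28 genes in the RefSeq table of mouse build GRCm38.p6, as 28 windows of 300 bases from 250 before to 50 after an annotated start. The 250 bases before the start are shown for 4 genes that differ in their course: Hmgcs1 and Msmo1, with large rises at day 2, Insig1, high at days 2 and 15, and Ebp, which was highest at day 15. They lie at chr13:119690101-119690350 (plus strand, Hmgcs1), chr8:64733579-64733828 (minus strand, Msmo1), chr5:28071162-28071411 (plus strand, Insig1) and chrX:8193513-8193762 (minus strand, Ebp). Capitals mark the core of the sterol regulatory element, CACNCCAC, and the CCAAT box, CCAAT, on either strand.
Hmgcs1: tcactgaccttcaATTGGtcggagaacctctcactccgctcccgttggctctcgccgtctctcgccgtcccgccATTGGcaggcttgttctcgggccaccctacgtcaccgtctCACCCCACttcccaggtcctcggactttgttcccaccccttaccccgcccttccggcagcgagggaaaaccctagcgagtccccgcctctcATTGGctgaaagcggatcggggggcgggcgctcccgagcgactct
Msmo1: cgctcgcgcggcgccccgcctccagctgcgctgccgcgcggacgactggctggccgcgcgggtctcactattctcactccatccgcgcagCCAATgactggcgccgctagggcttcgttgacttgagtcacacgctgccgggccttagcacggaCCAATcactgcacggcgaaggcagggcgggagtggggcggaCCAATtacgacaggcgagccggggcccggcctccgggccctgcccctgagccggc
Insig1: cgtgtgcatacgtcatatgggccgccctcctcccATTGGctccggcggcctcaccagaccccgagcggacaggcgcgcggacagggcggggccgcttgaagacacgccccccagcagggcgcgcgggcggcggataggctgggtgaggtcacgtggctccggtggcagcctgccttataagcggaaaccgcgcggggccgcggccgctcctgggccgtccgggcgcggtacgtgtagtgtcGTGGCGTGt
Ebp: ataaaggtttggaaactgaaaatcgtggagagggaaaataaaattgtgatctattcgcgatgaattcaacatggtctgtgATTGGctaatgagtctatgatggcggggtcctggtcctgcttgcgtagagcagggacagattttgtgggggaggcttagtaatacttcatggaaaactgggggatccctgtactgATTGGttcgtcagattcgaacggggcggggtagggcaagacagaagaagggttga

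The sterol element core, bound by SREBPs, was found 136 bases before the start in Hmgcs1 and, on the reverse strand, 9 bases before the start in Insig1. These were the only matches among the 28 windows, or 7.14%, against 6.24% of the 32851 windows of all genes. The CCAAT box, bound by the factor NF-Y that acts beside SREBPs, was found in 20 windows, or 71.4%, against 37.4% of all windows. Msmo1 held it 3 times, at 160, 96 and 55 bases before the start, and Ebp at 170 and 55 bases before. A GC box, GGGCGG, bound by SP1, was found in 21 windows, or 75.0%, against 35.7%. Both strands were searched for each motif, and no matches of different motifs shared a base in these 28 windows. Base composition was not matched, the windows of all genes include several per gene, and a match of letters is not a binding site.

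All 6 mevalonate enzymes peaked at day 2, and 4 of them rose from day 0. Hmgcs1 (ENSMUSG00000093930, GRCm39 chr13:120151915-120169796, plus strand) makes HMG-CoA at the head of the pathway. It stood at 285, 292.3 and 251.9 CPM in the 3 E14 libraries of day 0, 590, 633.9 and 585.4 at day 2, 226.8, 172.4 and 222.1 at day 6, and 415.4, 257.1 and 302.6 at day 15. The day 2 libraries lay above all others, and the day 6 libraries below all others. The rise to day 2 was 1.11 ± 0.16 (log2 fold change ± SE, adjusted p = 0.000768), followed by a change of -1.51 ± 0.16 to day 6 (adjusted p = 1.15e-05) and 0.66 ± 0.16 to day 15 (adjusted p = 0.00317).

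The farnesyl diphosphate synthase gene Fdps, which makes the last isoprenoid shared by sterols and protein prenylation, stood at 159.1, 145.7 and 107.9 CPM at day 0 in E14. It reached 254.4, 261.7 and 255.2 CPM at day 2, then 93.4, 82.51 and 86.74 at day 6 and 85.88, 57.34 and 65.38 at day 15. Its day 2 libraries lay above all the rest, and the libraries of days 6 and 15 below those of day 0. The isomerase Idi1 had the steepest fall of the 28 genes from day 2 to day 6, by 1.67 on the log2 scale (adjusted p = 2.1e-05). It went from 54.95, 57.51 and 62.22 CPM at day 2 to 21.25, 15.06 and 17.52 at day 6 and 14.62, 9.374 and 12.03 at day 15. The rises of Idi1 (0.65 ± 0.19, adjusted p = 0.028) and of the decarboxylase Mvd (0.60 ± 0.16, adjusted p = 0.02) at day 2 were the least firm. Leaving out E14 day 0 replicate 3 or any 1 of the 3 day 2 libraries ended both calls, and leaving out day 0 replicate 1 ended that of Idi1, with adjusted p from 0.0531 to 0.0822 for Mvd and from 0.0696 to 0.106 for Idi1. The kinases Mvk and Pmvk, which phosphorylate mevalonate in turn, had values of 0.12 ± 0.2 and 0.05 ± 0.25 at day 2, with overlapping libraries. Both fell to day 6, by 0.59 and 0.81 on the log2 scale (adjusted p = 0.0282 and 0.018). The Mvk call ended when any 1 of the day 2 libraries or the second replicate of day 6 was removed, with adjusted p as high as 0.123. That of Pmvk ended on removing day 2 replicate 1, or either of replicates 2 and 3 of day 6, with adjusted p as high as 0.064.

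Squalene synthase (Fdft1), squalene epoxidase (Sqle) and lanosterol synthase (Lss) are the 3 enzymes from farnesyl diphosphate to lanosterol, and all 3 rose at day 2 and fell by day 6. Fdft1 stood at 128.8, 115.5 and 113.1 CPM at day 0, 191.4, 209.4 and 202.6 at day 2, 89.39, 87.62 and 93.94 at day 6, and 104, 84.96 and 86.19 at day 15 in E14. Its rise was 0.74 ± 0.11 (adjusted p = 0.000908). Sqle, a flux-controlling step of the pathway, rose by 0.73 ± 0.13 (adjusted p = 0.00211) and then fell by 1.54 on the log2 scale, from 236.4, 250 and 233.2 CPM to 80.17, 74.18 and 87.46 (adjusted p = 1.38e-06). From day 6 to day 15 Sqle rose by 0.45 ± 0.13 (adjusted p = 0.00888), to 129.4, 89.86 and 107.2 CPM. That call was lost in 2 of the fits without a library (adjusted p 0.0541 to 0.0734). Lss rose by 0.91 ± 0.16 (adjusted p = 0.00192) and had fallen to 82.32, 51.62 and 57.93 CPM by day 15, below its 131.2, 114.4 and 102.3 CPM of day 0 with no overlap. Its step from day 6 to day 15 was -0.43 ± 0.16 (adjusted p = 0.0316), with overlapping libraries. That call was lost in 4 of the fits without a library (adjusted p 0.0591 to 0.104).

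The 8 enzymes that turn lanosterol into cholesterol fell into groups with different courses. Cyp51, Msmo1, Nsdhl and Dhcr7 rose at day 2 and fell by day 6. Msmo1 (ENSMUSG00000031604, GRCm39 chr8:65171173-65186826, minus strand), the sterol methyl oxidase, had the largest rise of the 28 genes at day 2, 1.38 ± 0.17 (adjusted p = 0.000207). It stood at 47.7, 74.31 and 54.94 CPM at day 0, 150.6, 162.9 and 153.1 at day 2, 71.53, 50.95 and 59.97 at day 6, and 56.81, 45.12 and 55.12 at day 15. Outside day 2 its E14 libraries overlapped. Nsdhl, which removes a sterol methyl group, stood at 21.24, 29.08 and 24.05 CPM at day 0, 42.96, 48.79 and 46.79 at day 2, 21.12, 20.31 and 23.99 at day 6, and 28.97, 20.36 and 24.73 at day 15, with a rise of 0.88 ± 0.16 (adjusted p = 0.00243). Dhcr7, the last reductase of the pathway, rose by 0.72 ± 0.15 (adjusted p = 0.00556) to 120.4, 114 and 112 CPM at day 2 and fell to 55.7, 52.57 and 58.92 at day 6 (adjusted p = 0.000138). Cyp51, the lanosterol demethylase, rose by 1.0 ± 0.17 at day 2 (adjusted p = 0.00172), fell by 1.17 on the log2 scale to day 6 (adjusted p = 0.000109), and rose again by 0.82 ± 0.17 to day 15 (adjusted p = 0.000932), to 152.3, 94.11 and 118.8 CPM.

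Tm7sf2, a sterol reductase, rose at day 2 by 0.67 ± 0.18 (adjusted p = 0.0175) and had a value of -0.08 ± 0.18 from day 2 to day 6. Its rise lost the call without E14 day 0 replicate 3, day 2 replicate 1 or day 2 replicate 2 (adjusted p 0.0503 to 0.0816). Sc5d, Ebp and Hsd17b7 were instead highest at day 15. Ebp and Hsd17b7 had values of -0.45 ± 0.18 and 0.15 ± 0.22 at day 2 (adjusted p = 0.0789 and 0.66). The desaturase Sc5d rose at both ends, from 19.54, 31.88 and 26.36 CPM at day 0 to 43.49, 50.08 and 45.9 at day 2, and from 33.3, 33.34 and 42.31 at day 6 to 67.56, 50.14 and 55.09 at day 15. The isomerase Ebp stood at 18.08, 22.7 and 24.41 CPM at day 0, 13.77, 14.2 and 20.21 at day 2, 15.27, 15.88 and 15.91 at day 6, and 33.32, 28.81 and 25.82 at day 15. Its day 15 libraries lay above all others, a rise of 0.92 ± 0.18 from day 6 (adjusted p = 0.000563). Hsd17b7, a sterol ketone reductase, rose by 0.73 ± 0.22 from day 6 to day 15 (adjusted p = 0.0125), to 29.91, 29.05 and 31.49 CPM. Without E14 day 6 replicate 2 that call was lost (adjusted p = 0.0661).

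**Figure D3:**
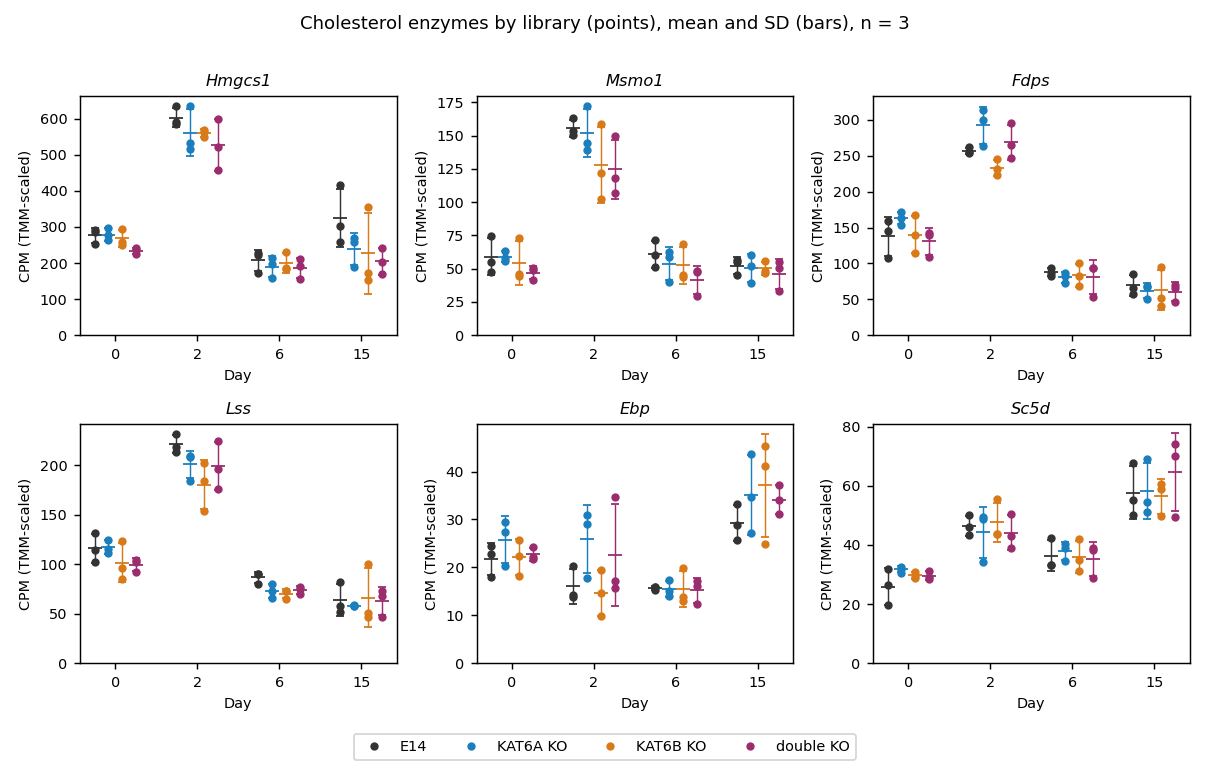
CPM of 6 cholesterol enzymes in each library (points) with mean and SD (bars, n = 3) for the 4 lines at each day. In Hmgcs1, Msmo1, Fdps and Lss all 12 day 2 libraries lie above the others, while Ebp and Sc5d have their highest means at day 15.

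The control genes did not follow the enzymes as a group. Insig1 (ENSMUSG00000045294, GRCm39 chr5:28276361-28283660, plus strand), the retention factor, rose at day 2, fell by day 6 and then reached its highest level at day 15. It stood at 131.1, 93.12 and 97.69 CPM at day 0 in E14, 207, 216.8 and 223.3 at day 2, 123.9, 116.7 and 81.99 at day 6, and 298.2, 362.5 and 273.3 at day 15. The day 2 and day 15 libraries did not overlap with each other or with days 0 and 6. The 3 steps were 0.99 ± 0.18 (adjusted p = 0.0024), -0.97 ± 0.18 (adjusted p = 0.000653) and 1.55 ± 0.18 (adjusted p = 7.53e-06).

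Scap, the escort of the SREBPs, went the other way at the early steps. It stood at 70.74, 57.96 and 85.98 CPM at day 0, 43.81, 42.96 and 50.88 at day 2, 77.47, 64.76 and 76.68 at day 6, and 106.1, 99.05 and 102.3 at day 15 in E14. It fell by 0.66 on the log2 scale at day 2 (adjusted p = 0.00609), and rose by 0.70 ± 0.14 to day 6 (adjusted p = 0.00134) and 0.50 ± 0.14 to day 15 (adjusted p = 0.00758). Day 2 was its lowest point and day 15 its highest, each without overlap with the other days. Of the 28 genes, it was the 1 that fell at day 2 and the 1 that rose from day 2 to day 6.

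Stard4, which carries cholesterol between membranes, rose at day 2 by 1.07 ± 0.12 (adjusted p = 0.000133), from 53.59, 62.89 and 52.05 CPM to 119.3, 125.2 and 113, and fell by 0.59 on the log2 scale to day 6. The messages of the SREBPs moved less. Srebf2 stood at 416.5, 335.5 and 321.9 CPM at day 0, 461.6, 409.3 and 428.6 at day 2, 327.2, 270.5 and 327.4 at day 6, and 372.1, 327.8 and 312.8 at day 15. Its value at day 2 was 0.26 ± 0.13 (adjusted p = 0.181), and it fell by 0.46 on the log2 scale from day 2 to day 6 (adjusted p = 0.0129), a call that was lost without day 2 replicate 1 or day 6 replicate 2 (adjusted p = 0.0563 and 0.068). Srebf1 (ENSMUSG00000020538, GRCm39 chr11:60089915-60113407, minus strand) stood at 192.7, 143.8 and 163.9 CPM at day 0, 139.3, 124.6 and 164 at day 2, 173.6, 155.1 and 191.5 at day 6, and 215.7, 210 and 184.4 at day 15. Its neighbouring days overlapped in E14, and no step passed the test, with values of -0.25, 0.32 and 0.24, each ± 0.14. The messages do not show how much SREBP protein was processed.

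**Figure D4:**
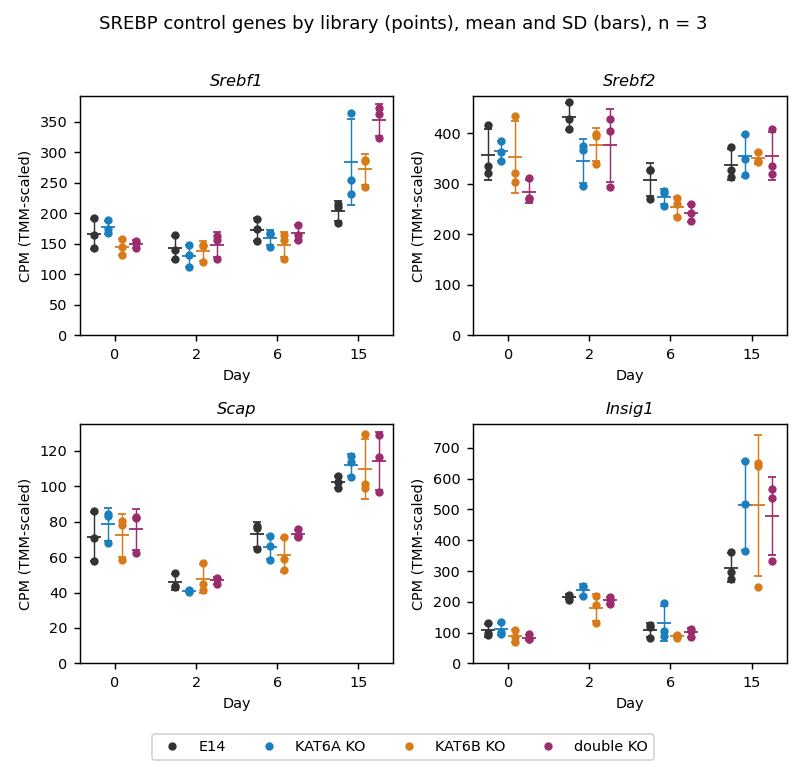
CPM of Srebf1, Srebf2, Scap and Insig1 in each library (points) with mean and SD (bars, n = 3) for the 4 lines at each day. Scap is lowest at day 2 in every line, Insig1 is highest at day 15, and Srebf1 in the double knockout at day 15 lies at 322.9 to 372.3 CPM, above the E14 libraries.

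The 6 fatty acid genes did not share 1 course. Acly, which makes cytosolic acetyl-CoA from citrate and so feeds both pathways, had 758.4, 783.6 and 766.9 CPM at day 0, 926.5, 944.2 and 993.6 at day 2, 443.6, 357.9 and 490.1 at day 6, and 561.9, 414.4 and 478.6 at day 15. Its day 2 libraries lay above those of day 0, though the value of 0.29 ± 0.13 did not pass the test (adjusted p = 0.126). It fell by 1.12 on the log2 scale to day 6 (adjusted p = 2.49e-05). Fasn, the fatty acid synthase, was highest at day 0 in all 4 lines. It stood at 2109, 1732 and 2003 CPM at day 0, 1700, 1497 and 1932 at day 2, 1292, 868.2 and 1300 at day 6, and 1055, 773 and 818 at day 15, and fell by 1.12 on the log2 scale between the first and last day (adjusted p = 5.21e-05). Its fall from day 2 to day 6 (-0.53 ± 0.17, adjusted p = 0.0224) lost the call without day 2 replicate 1, day 2 replicate 3 or day 6 replicate 2 (adjusted p 0.0551 to 0.0998).

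Acaca, the acetyl-CoA carboxylase that commits carbon to fatty acids, had values of 0.19 ± 0.15 and 0.0 ± 0.15 at the first 2 steps, and fell by 0.64 on the log2 scale from day 6 to day 15 (adjusted p = 0.00212), to 180.1, 142.3 and 168.3 CPM. The elongase Elovl6 had 140.7, 184.1 and 162.1 CPM at day 0, 209.7, 217.5 and 254.2 at day 2, 107.9, 153 and 139.9 at day 6, and 80.75, 70.08 and 68.23 at day 15, where its libraries lay below all others. Its rise at day 2 (0.47 ± 0.14, adjusted p = 0.0298) held in 1 of the 6 fits without a library, the fit without day 0 replicate 2, with adjusted p of 0.0601 to 0.104 in the others. The falls that followed, -0.73 ± 0.14 and -0.86 ± 0.14 (adjusted p = 0.000938 and 0.000161), held in each.

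Scd1 and Scd2, desaturases that make monounsaturated fatty acids, moved apart at day 15. Scd1 stood at 117.5, 146.9 and 81.57 CPM at day 0, 221.4, 218.5 and 213.4 at day 2, 199.1, 311.2 and 221.6 at day 6, and 112.5, 109.2 and 108.5 at day 15. It rose by 0.90 ± 0.19 at day 2 (adjusted p = 0.0058) and fell by 1.13 on the log2 scale from day 6 to day 15 (adjusted p = 0.000206). Scd2, the form known from brain, stood at 734, 1018 and 570.9 CPM at day 0, 747.3, 729.6 and 982.5 at day 2, 1120, 854.3 and 1249 at day 6, and 1810, 1591 and 1685 at day 15. Its rise from day 0 to day 15 was 1.16 ± 0.2 (adjusted p = 0.000117), with day 15 above all other days. The ratio of Scd2 to Scd1 CPM in E14 was 6.73 ± 0.416 at day 0, 3.77 ± 0.72 at day 2, 4.67 ± 1.67 at day 6 and 15.4 ± 0.768 at day 15 (mean ± SD, n = 3). The knockout lines had 13.7, 13.0 and 12.3 at day 15. Scd1 and Scd2 are close paralogs, neighbours on chromosome 19, and how reads that fit both were counted is not given in the sources used here.

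**Figure D5:**
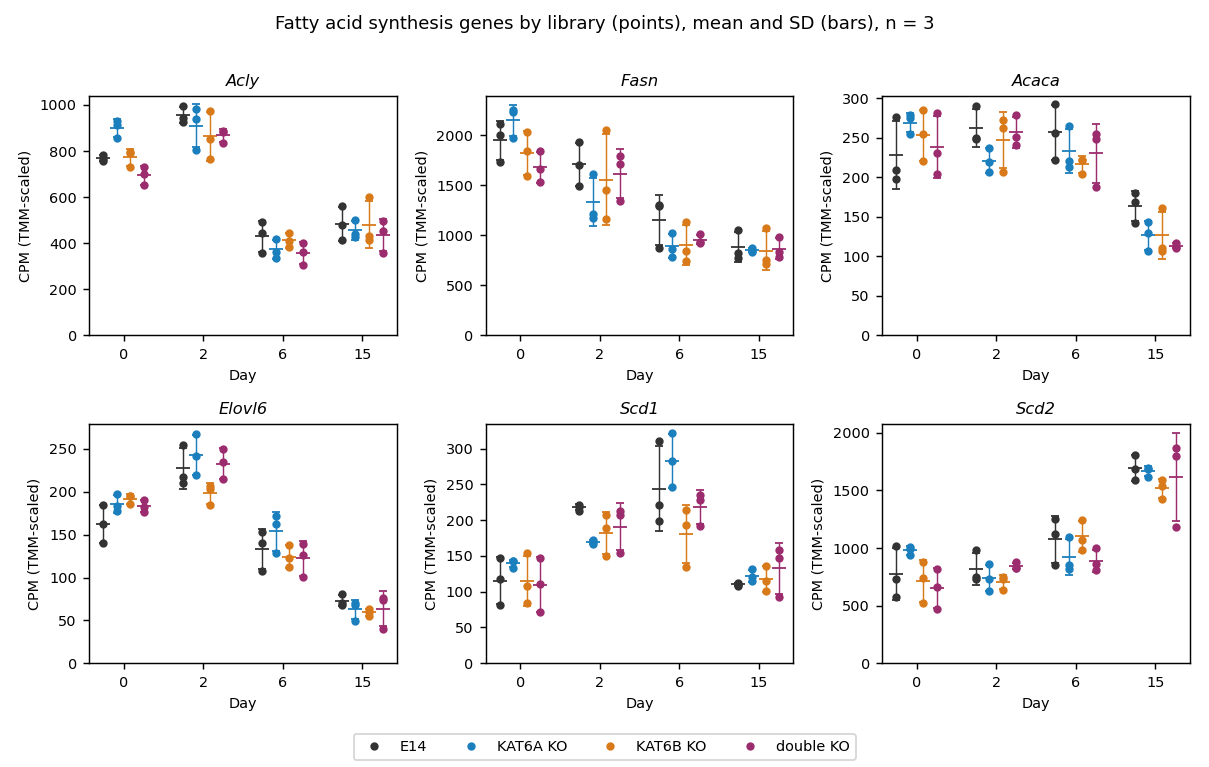
CPM of 6 fatty acid genes in each library (points) with mean and SD (bars, n = 3) for the 4 lines at each day. Fasn has its highest means at day 0, Elovl6 is lowest at day 15, and at day 15 Scd1 falls while Scd2 reaches 1591 to 1810 CPM in E14.

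Per kilobase of exon, taken as the union of a gene's annotated exons, Fasn, Acly and Scd2 had the highest levels of the 28 genes at day 0. In E14 the levels at day 0 were 178 ± 17.8 CPM per kilobase for Fasn, 146 ± 2.43 for Acly and 142 ± 41.4 for Scd2 (mean ± SD, n = 3). The spread of Scd2 overlapped with that of the other two. Hmgcs1 followed with 60.2 ± 4.69 and Srebf2 with 49.8 ± 7.12, and Tm7sf2 was lowest at 3.17 ± 0.288. At day 2 the order was led by Acly (181 ± 6.59 CPM per kilobase), Fasn (156 ± 19.9), Scd2 (150 ± 25.8) and Hmgcs1 (131 ± 5.83), and neighbours in this order overlapped within mean ± SD. At day 15 Scd2 led with 310 ± 20.1 CPM per kilobase, ahead of Insig1 (101 ± 14.9) and Acly (91.9 ± 14).

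Between the ends of the course, 9 genes were higher and 12 lower at day 15 than at day 0 in E14, where 69.7% of all genes were called and the medians were -0.10 over the 28 genes and 0.08 over all. By role, the mevalonate enzymes had 4 lower, the squalene and lanosterol enzymes 3 lower, the last 8 cholesterol enzymes 5 higher and 1 lower, the control and transport genes 3 higher, and the fatty acid genes 1 higher and 4 lower. Of these 21 calls, 14 held without any 1 library. At day 6 against day 0, 5 genes were higher and 9 lower, where 50% of all genes were called, and without E14 day 6 replicate 3 the 14 calls became 9. The largest change of that step was the rise of Scd1, 1.1 ± 0.19 (adjusted p = 0.000356).

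The knockout lines were compared over the same steps, in fits added after the E14 results were known. The question is whether cells without these acetyltransferases pass through the same course. At day 2 against day 0, 14 genes rose and 2 fell in the KAT6A knockout, where 19.7% of all genes were called. In the double knockout 13 rose and 1 fell, where 11.2% of all genes were called. In the KAT6B knockout 6 rose (Hmgcs1, Fdft1, Cyp51, Msmo1, Sc5d and Stard4), where 4.02% of all genes were called. At an unadjusted p under 0.05 there were 17 of the 28 genes in that line. The share of all genes under that p is not given here, so the 17 cannot be set against the 4.02%. DESeq2 called 8 of the 28 there, and 2269 of all genes. The edgeR counts changed when 1 library was left out. In the KAT6B knockout 0 calls were left without replicate 1 or 3 of day 0 or replicate 2 or 3 of day 2, 2 without day 2 replicate 1 and 5 without day 0 replicate 2. In the KAT6A knockout the 16 calls became 10 without replicate 1 or 2 of day 0. In the double knockout the 14 calls became 9, 8 and 9 without day 0 replicate 1, day 0 replicate 3 and day 2 replicate 1.

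For Hmgcs1 the rise was 1.01 ± 0.16 in the KAT6A knockout, 1.12 ± 0.25 in the KAT6B knockout and 1.15 ± 0.15 in the double knockout. Msmo1 rose by 1.36 ± 0.19, 1.28 ± 0.24 and 1.39 ± 0.22 in the same order. Insig1 rose by 1.12 ± 0.26 and 1.27 ± 0.18 in the KAT6A and double knockouts, and had 1.09 ± 0.32 in the KAT6B knockout (adjusted p = 0.0772). Scap fell by 0.94 and 0.71 on the log2 scale in the KAT6A and double knockouts, and had -0.54 ± 0.19 in the KAT6B knockout (adjusted p = 0.123). Tested directly as a difference from E14 in the change from day 0 to day 2, edgeR called 0 of the 28 genes in the KAT6A, KAT6B and double knockouts, and 0% of all genes in each. At an unadjusted p under 0.05 there were 3, 1 and 0 of the 28. DESeq2 called 0 in each, where it called 22, 0 and 32 of all genes. The differences lay between -0.59 and 0.51 with SE of 0.13 to 0.3 in the KAT6A knockout, -0.41 and 0.52 with SE of 0.17 to 0.31 in the KAT6B knockout, and -0.29 and 0.49 with SE of 0.14 to 0.34 in the double knockout.

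From day 2 to day 6, 2 genes rose and 21 fell in the KAT6A knockout, 1 rose and 16 fell in the KAT6B knockout, and 1 rose and 18 fell in the double knockout. Among all genes, 45.9%, 32.8% and 42.1% were called in those lines. From day 6 to day 15, 12 rose and 6 fell in the KAT6A knockout, 7 and 4 in the KAT6B knockout, and 9 and 5 in the double knockout, where 55.4%, 44.4% and 55.2% of all genes were called. Without the KAT6B knockout library of day 6 replicate 3, its 17 calls from day 2 to day 6 became 11, and without the library labelled KAT6B knockout, day 15, replicate 1, its 11 calls from day 6 to day 15 became 17. Insig1 rose in this last step by 2.03 ± 0.27, 2.55 ± 0.34 and 2.27 ± 0.19 in the 3 lines. Srebf1 rose by 0.87 ± 0.15, 0.87 ± 0.16 and 1.1 ± 0.12. Without KAT6B knockout day 15 replicate 1 the KAT6B rises were 2.94 for Insig1 (adjusted p = 1.65e-07) and 1.01 for Srebf1 (adjusted p = 0.000114), where 46.5% of all genes were called. Without double knockout day 15 replicate 3, its rises were 2.17 for Insig1 and 1.15 for Srebf1 (adjusted p = 4.52e-07 and 5.89e-06), with 14 of the 28 genes called, where 54.1% of all genes were called. Of the 28 genes, 25 had their highest mean on the same day in all 4 lines, and the exceptions were Srebf2, Acaca and Scd1.

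Within a day, few of these genes passed the test between a knockout and E14. At day 0, edgeR called 0 of the 28 genes in each knockout, where 0%, 0.0106% and 2.09% of all genes were called in the KAT6A, KAT6B and double knockouts. At an unadjusted p under 0.05 there were 0, 2 and 6 of the 28. The share of all genes under that p is not given here for any comparison. DESeq2 called 0, 0 and 1 of the 28, where it called 5, 195 and 1086 of all genes. Of the 28, the gene DESeq2 called was Cyp51, at 59.33, 62.68 and 66.72 CPM in the double knockout against 79.37, 80.34 and 78.53 in E14, without overlap (-0.37 ± 0.09, adjusted p = 0.0579 in edgeR and 0.0103 in DESeq2). In that comparison the libraries of 18.1% of all genes did not overlap. Cyp51 was also called with a minimum of 1 CPM in 3 libraries (adjusted p = 0.0455), with a replicate block (0.0466) and without E14 day 0 replicate 2 (0.0323). In that last fit Mvk was called too (-0.41, adjusted p = 0.0444). The median over the 28 genes was -0.19 in the double knockout at day 0, with 22 of 28 below 0.

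At day 2, edgeR called 0 of the 28 in each knockout, where 0.0102%, 0% and 1.12% of all genes were called. At an unadjusted p under 0.05 there were 3, 6 and 3. DESeq2 called 0 in each, where it called 30, 23 and 643 of all genes. At day 6, edgeR again called 0 in each, where 0%, 0.0292% and 0.0682% of all genes were called. At an unadjusted p under 0.05 there were 3, 4 and 4, and DESeq2 called 0, 1 and 0, the 1 being Mvd in the KAT6B knockout (-0.39, adjusted p = 0.0439). Mvd had 28.67, 27.98 and 27.97 CPM there against 37.77, 36.57 and 37.74 in E14. DESeq2 called 2, 531 and 243 of all genes in the KAT6A, KAT6B and double knockouts at day 6. In the double knockout at day 6, 27 of the 28 genes had values below 0, with a median of -0.20 against -0.02 over all genes. Since all 28 share the same libraries and the 3 knockouts share the E14 libraries, these are not independent observations.

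At day 15 the double knockout had 1 call among the 28 genes, Srebf1, where 3.18% of all genes were called. Srebf1 stood at 372.3, 362.2 and 322.9 CPM in the double knockout against 215.7, 210 and 184.4 in E14, without overlap. In that comparison the libraries of 42.2% of all genes did not overlap. Among the 28 genes, 1 was higher and 3 were lower without overlap. The difference for Srebf1 was 0.78 ± 0.16 (adjusted p = 0.0344 in edgeR). The call did not hold when any 1 of the 6 libraries was left out: the values were 0.84, 0.80 and 0.72 without E14 replicate 1, 2 or 3, and 0.74, 0.76 and 0.84 without double knockout replicate 1, 2 or 3, with adjusted p from 0.0638 to 0.132. The last of these fits, without the library whose Kat6b level lay just above the E14 libraries, called 0 of the 28 genes and 0.495% of all genes. With a replicate block the value was 0.78 (adjusted p = 0.061). The KAT6A knockout had 364, 254.8 and 232.4 CPM (0.47 ± 0.16, adjusted p = 0.355) and the KAT6B knockout 242.5, 287.9 and 286.2 (0.40 ± 0.16, adjusted p = 0.201), each above the E14 libraries. In those comparisons the libraries of 26.5% and 29.3% of all genes did not overlap. Without KAT6B knockout replicate 1 the Srebf1 value for that line was 0.46 (adjusted p = 0.0962). Other settings called further genes in the double knockout at day 15. Acaca had 111.1, 111.6 and 116.8 CPM there against 180.1, 142.3 and 168.3 in E14, without overlap. It was called by DESeq2 (-0.59, adjusted p = 0.0474), with only the groups compared (-0.55) and with all 48 libraries in 1 fit (-0.54). DESeq2 called 2591 of all genes in that comparison. Hmgcs1 (-0.67) and Nsdhl (-0.65) were called with all 48 libraries in 1 fit. The difference in the change from day 0 to day 15 was 0.95 ± 0.18 for Srebf1 in the double knockout (adjusted p = 0.0221), where 2.51% of all genes were called. It fell short of the threshold on leaving out E14 day 0 replicate 3, E14 day 15 replicate 1 or 3, any 1 of the 3 double knockout libraries of day 0, or double knockout day 15 replicate 1 (adjusted p 0.0504 to 0.0579). Without double knockout day 15 replicate 3 it was 1.00 (adjusted p = 0.0185), the 1 call among the 28 genes, where 3.49% of all genes were called. The ratio of Srebf2 to Srebf1 CPM at day 15 was 1.66 ± 0.0876 in E14 and 1.28 ± 0.157, 1.30 ± 0.176 and 1.01 ± 0.112 in the KAT6A, KAT6B and double knockouts. In the KAT6B knockout it was 1.5 in replicate 1 and 1.19 and 1.21 in the other two, and in the double knockout 1.04 in replicate 3 and 0.883 and 1.1 in the other two.

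In the KAT6A and KAT6B knockouts at day 15 edgeR called 0 of the 28 genes, where 0% and 0.0742% of all genes were called. There was 1 gene at an unadjusted p under 0.05 in each, and DESeq2 called 0, where it called 280 and 1716 of all genes. For the change from day 0 to day 15 the counts were 0 in both, where 0% and 0.0436% of all genes were called. There were 3 genes at an unadjusted p under 0.05 in each and 0 by DESeq2, which called 143 and 712 of all genes. The spread at day 15 limits what can be seen: the SE of the 28 differences ran from 0.13 to 0.37. Insig1 is an example. It had 657.4, 366 and 517.1 CPM in the KAT6A knockout, 247.7, 650.4 and 640.9 in the KAT6B knockout and 567.3, 332.4 and 536.5 in the double knockout, against 298.2, 362.5 and 273.3 in E14. The differences were 0.71 ± 0.35, 0.70 ± 0.35 and 0.61 ± 0.35 (adjusted p = 0.467, 0.284 and 0.3). Without double knockout replicate 3 the last of these was 0.52 (adjusted p = 0.492), and the values of Acaca, Hmgcs1 and Nsdhl in that line were -0.57, -0.67 and -0.67 (adjusted p = 0.203, 0.374 and 0.347).

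In the KAT6B knockout the value of 247.7 CPM came from replicate 1, the library whose Kat6b level lay above every E14 library of that day. That library also had the highest Hmgcs1 of its group, 356.2 CPM against 152.5 and 173.7 in replicates 2 and 3. Without it, 4 of the 28 genes were called in the KAT6B knockout at day 15: Hmgcs1 at -1.03 (adjusted p = 0.0384), Nsdhl at -0.94 (adjusted p = 0.0434), Insig1 at 1.02 (adjusted p = 0.0436) and Acaca at -0.62 (adjusted p = 0.0373). In that fit 9.33% of all genes were called. For the change from day 0 to day 15, Hmgcs1 (-0.99), Nsdhl (-1.01) and Insig1 (1.31, adjusted p = 0.0155) were called without it, where 6.81% of all genes were called. Replicate 1 had the highest Hmgcs1 and the lowest Insig1 of its group, so leaving it out enlarges both differences by construction. These calls of Hmgcs1 and Insig1 therefore cannot decide whether the KAT6B knockout differs from E14. In the double knockout, leaving out day 15 replicate 2 gave a call for the change of Insig1 (1.2, adjusted p = 0.0229). That library, with 332.4 CPM, had the lowest Insig1 of its group, so leaving it out raises the difference by construction. This call therefore cannot decide whether the change differs, and the share of all genes called in that fit is not given here.

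Markers of other cell types differed between the lines at day 15, the day of these differences. All 6 neuron markers were above 1 CPM in each line and summed to 1150 to 2070 CPM in E14, 262 to 1060 in the KAT6A knockout, 54.2 to 733 in the KAT6B knockout and 113 to 646 in the double knockout. Astrocyte and radial glia markers, 4 of 6 above 1 CPM in each line, summed to 504 to 779, 73.2 to 245, 33.7 to 136 and 23.5 to 93.5 CPM in the same order. All 6 mesenchyme markers were above 1 CPM and summed to 1560 to 4070, 2420 to 6360, 4330 to 17700 and 7210 to 8040 CPM. Endoderm markers, 5 of 6 above 1 CPM, summed to 593 to 906, 740 to 1440, 308 to 1660 and 1300 to 1540 CPM. Oligodendrocyte lineage markers, 6 of 6 above 1 CPM in E14 and 4 of 6 in each knockout, summed to 310 to 482, 359 to 664, 161 to 724 and 613 to 918 CPM. This sum was higher in the double knockout than in E14 while fewer of the markers passed 1 CPM. It therefore does not stand for each marker or show more cells of that lineage. KAT6B knockout replicate 1 held the 733, 136, 17700, 308 and 161 CPM of those 5 sums. Without it, the KAT6B knockout had 54.2 to 304 CPM for neuron, 33.7 to 59.4 for astrocyte and radial glia, 4330 to 5070 for mesenchyme, 1360 to 1660 for endoderm and 657 to 724 for oligodendrocyte markers. Double knockout replicate 3 held 113 CPM of the neuron markers, against 646 CPM in each of the other two. The part of these cell types in the values of Srebf1 and Insig1 was not tested.

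Other genes of the pathways were read from lists of related functions. Beside their counts stand the shares of all genes tested in E14: 21.6% called and 9.5% called higher at day 2 against day 0, and 69.7% called at day 15 against day 0. Those of the double knockout against E14 were 2.09% at day 0, 1.12% at day 2 and 3.18% at day 15. Of 13 genes of sterol transport and storage, 6 rose and 1 fell at day 2 in E14, and 11 were higher and 1 lower at day 15 than at day 0. The largest of these were Vldlr, a lipoprotein receptor (3.93 ± 1.95 to 70.4 ± 5.67 CPM, 4.19 ± 0.34 on the log2 scale, adjusted p = 1.34e-07), Ch25h, a cholesterol hydroxylase (3.81 ± 0.76, adjusted p = 0.00049), and Cyp46a1, the neuronal cholesterol hydroxylase (0.759 ± 0.318 to 7.34 ± 2.45 CPM, adjusted p = 2.22e-06). Lipa, the lysosomal acid lipase, was higher in the double knockout at day 15 (61.4 ± 7.18 CPM against 33.4 ± 2.11 in E14, 0.86 ± 0.18, adjusted p = 0.0354). Of 9 other regulators of sterol synthesis, 4 were higher and 2 lower at day 15 than at day 0, against the 69.7% of all genes called. Among them was Nr1h3, the sterol sensor LXR alpha, low at both days (1.7 ± 0.812 to 0.34 ± 0.189 CPM, -2.3 ± 0.51, adjusted p = 0.00104). Another was Erlin2, which acts in the degradation of sterol-regulated proteins (1.13 ± 0.11, adjusted p = 6.49e-07). Of 8 genes of the isoprenoid branch, 3 were higher and 4 lower at day 15 than at day 0 (69.7% of all genes called), with Pdss1, Fntb and Fnta at -1.51 ± 0.2, -1.32 ± 0.12 and -1.09 ± 0.13.

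On the fatty acid side, 7 of 13 genes of elongation, desaturation and activation rose at day 2 in E14, and 8 were higher and 2 lower at day 15 than at day 0, where 9.5% of all genes rose at day 2 and 69.7% were called at day 15. Acsl6, an acyl-CoA synthetase of brain, rose by 2.44 ± 0.23 over the course (adjusted p = 4.65e-07), and the elongases Elovl2 and Elovl7 by 1.49 ± 0.22 and 1.33 ± 0.25. In the double knockout at day 15 Elovl1 was higher (1.01 ± 0.17, adjusted p = 0.0222) and Acsl1 lower (-0.72 ± 0.15, adjusted p = 0.0378). Of 7 genes of acetyl-CoA supply and carboxylation, 2 were higher and 3 lower at day 15 than at day 0, again beside 69.7% of all genes. Mlxipl, the carbohydrate-responsive factor ChREBP, went from 12.7 ± 1.47 to 0.769 ± 0.258 CPM (-4.0 ± 0.31, adjusted p = 8.47e-08), Acacb changed by -2.36 ± 0.25, and malic enzyme Me1, a source of NADPH, went from 24.3 ± 4.31 to 80.1 ± 6.95 CPM (1.75 ± 0.19). Of 11 genes of fatty acid oxidation, 5 were higher and 3 lower in that comparison (69.7% of all genes), among them Ppara, a lipid-sensing nuclear receptor (1.8 ± 0.57), and Acadm, a mitochondrial dehydrogenase (-1.45 ± 0.15). Some oxidation genes differed between the double knockout and E14. Acadvl was higher at days 0 and 15 (0.54 ± 0.11 and 0.86 ± 0.12, adjusted p = 0.0293 and 0.0204), Cpt2 at day 15 (0.96 ± 0.17, adjusted p = 0.0258) and Slc25a20 at day 2 (1.03 ± 0.2, adjusted p = 0.0262), while Cpt1a, the entry step of mitochondrial oxidation, was lower at day 0 (-0.49 ± 0.12, adjusted p = 0.0434). These calls in the double knockout were lost in most fits without 1 library, while no value changed direction. Over all alternative fits the day 15 values were 0.77 to 0.92 for Lipa, 0.92 to 1.09 for Elovl1, -0.83 to -0.64 for Acsl1 and 0.9 to 1.07 for Cpt2. Those of Lipa, Elovl1, Acsl1 and Cpt2 at day 15 were lost when any 1 of the 6 libraries was left out (adjusted p up to 0.168, 0.115, 0.133 and 0.132). With a replicate block the day 15 calls of Lipa, Elovl1, Acsl1, Cpt2 and Acadvl were lost as well (adjusted p = 0.057, 0.057, 0.073, 0.0599 and 0.0538). Acadvl kept its call at day 15 only without double knockout replicate 3 and at day 0 only without E14 replicate 1 or 2, Slc25a20 at day 2 only without double knockout replicate 1, and Cpt1a at day 0 only without E14 replicate 2. The rise of Ppara in E14 was lost without E14 day 0 replicate 3 (adjusted p = 0.058).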

How the data were processed

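The values used are the raw counts per gene that the authors deposited for all 48 libraries. Reads were aligned with HISAT2 to GRCm39, per the submitters' processing notes; no source used here gives the version, counting program, annotation or strand setting. Of 36983 entries, 48 that repeat an identifier were left out, and 4652 genes had no count. The total count per library, 22.5 M to 72.2 M, sets the precision of low values.

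Counts were tested with edgeR 4.0.16 in R 4.3.3: TMM scaling, filterByExpr by group (minimum count 10, minimum total 15), a robust quasi-likelihood fit and Benjamini-Hochberg adjustment over all genes tested, in 1 fit per line or per day, with differences in change fitted as interactions of 2 lines. The scripts were tested on simulated data. DESeq2 1.42.0, other scaling, filters, sets of libraries, a replicate block and leaving out each library were alternatives. The comparisons of days within knockout lines, and the changes from day 0 to day 2, were added after the data were examined.

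The members and lists were chosen with earlier results of these data known. All 28 members are described. Of each other list, up to 3 called genes with the largest change in E14 from day 0 to day 15, and up to 2 called in a knockout comparison, are named. Where none of a list was called in a knockout, the 2 with the highest mean were to be named, here Fnta and Fntb, which are already given, and Slc25a1 and Acat2 (103 and 74.8 CPM in E14 at day 0). Replicate numbers were checked for pairing: in 1 of 29 comparisons every pair of same-numbered libraries had deviations correlated above 0.1, so the main test has no block. Levels per kilobase use the union of a gene's GENCODE M21 exons, not the length of a single transcript, so the order of genes depends on that annotation. Promoter windows are from RefSeq on GRCm38.p6 and were not placed on GRCm39. Some genes of these pathways, including some that this rule would name, are not reported here.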

Additional observations from a re-analysis of the deposited data

Results flagged for a closer look

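The change from day 0 to day 15 differed between the double knockout and E14 for 3 of the 89 listed genes (28 described in full and the related lists), by the test of the difference itself (edgeR, Benjamini-Hochberg adjusted). Among all 20689 genes tested, 520, or 2.51%, were called in that test. The 3 listed genes make 3.37% of their list, near the share of all genes, so the count sets these pathways apart little. For Srebf1 the difference was 0.95 ± 0.18 on the log2 scale (adjusted p = 0.0221), and the call was lost in 7 of the 12 fits without a library (adjusted p 0.0504 to 0.0579). For Cpt1a it was 1.34 ± 0.2 (adjusted p = 0.0128), from 29.2 to 83.7 CPM in the double knockout and from 40.2 to 45.7 CPM in E14, and the call held when any 1 of the 12 libraries was left out. For Mbtps1, a protease that activates SREBPs, it was 0.86 ± 0.2 (adjusted p = 0.0436), from 218 to 372 CPM in the double knockout and from 236 to 224 CPM in E14, and the call held in 3 of the 12 fits without a library.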

How the results depend on the processing

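Of the counts of called genes under other scaling, filters, tools and sets of libraries, 227 stayed within 1.5 times and 12 did not. The cause was not tested. The 227 include comparisons with 0 calls in the main fit that stayed at 0, so they do not measure how stable the other counts are. With only the groups compared in the fit, E14 at day 6 against day 0 had 9 calls, the double knockout at day 15 had 2 and the KAT6B knockout at day 2 against day 0 had 16. With all 48 libraries in 1 fit the KAT6B knockout at day 15 had 1, the double knockout at day 15 had 4 and the KAT6B knockout at day 2 against day 0 had 12. DESeq2 gave 1 in the double knockout at day 0, 1 in the KAT6B knockout at day 6 and 2 in the double knockout at day 15. It called 1086, 531 and 2591 of all genes in those comparisons. A minimum of 1 CPM in 3 libraries gave 1 in the double knockout at day 0.

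With a replicate block the double knockout had 1 call at day 0 and 0 at day 15. Same-numbered libraries correlated at -0.28 to 0.48, and 53 of 87 correlated best with their own number; every pair exceeded 0.1 only for the double knockout at day 6 (0.12, 0.12 and 0.39).

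Leaving out 1 library gave these ranges of calls. In E14 they were 14 to 18 at day 2 against day 0, 9 to 13 at day 6 against day 0, 17 to 20 at day 15 against day 0, 16 to 20 at day 6 against day 2 and 13 to 17 at day 15 against day 6. For day 2 against 0, day 6 against 2, day 15 against 6 and day 15 against 0, the KAT6A knockout had 10 to 15, 20 to 23, 15 to 19 and 18 to 23, the KAT6B knockout 0 to 5, 11 to 16, 8 to 17 and 11 to 20, and the double knockout 8 to 13, 19 to 20, 12 to 16 and 17 to 19. Against E14, the double knockout had 0 to 2 at day 0, 0 to 0 at day 15 and 0 to 2 for the change to day 15, and the KAT6B knockout 0 to 4 at day 15 and 0 to 3 for that change. The other knockout comparisons had 0 in each fit.

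No called gene changed direction in any alternative run: without leaving out libraries, 1925 values kept their call and 76 lost it, and on leaving out libraries 1441 kept it and 281 lost it. Plain library totals moved the E14 log2 changes by 0.08 (day 2 against 0), 0.25 (day 6 against 2), 0.33 (day 6 against 0), -0.12 (day 15 against 6) and 0.2 (day 15 against 0). The summed CPM of the 28 genes by plain totals was 5529 and 5731 in E14 at days 0 and 6, 5983, 5120 and 5448 in the KAT6A knockout at days 0, 6 and 15, 5308 and 5117 in the KAT6B knockout and 4956 and 5025 in the double knockout at days 0 and 6. By TMM the E14 libraries summed to 6232, 6133 and 5664 CPM at day 0 and 5214, 4290 and 5441 at day 6. In E14, 10 genes were higher at day 6 than at day 0 by TMM and 17 by plain totals. In the double knockout, 16 and 9 were higher at day 15 than at day 6. At day 2 against day 0 in E14 both gave 24. The direction of uncalled genes and of the sum at some steps therefore depends on the scaling. With 3 libraries a group, and a biological coefficient of variation of 37.8% at day 15 against 19.3% at day 0, small differences at day 15 were not detectable.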
